A study of Mus musculus with 5 samples.

Results

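Smooth muscle contracts through a cytoskeleton and a regulatory machinery of its own, and 10 genes of that set were followed here through every library and cell class: *Acta2*, *Actg2*, *Myh11*, *Tagln*, *Cnn1*, *Lmod1*, *Smtn*, *Des*, *Mylk* and *Myocd*. They were chosen by symbol among the 32285 genes of the count tables, by a rule that uses no measured value but with earlier results of these data known. The study profiled single cells of the developing penis and limbs of C57BL/6N mice (the strain in the sample labels, where the study's methods give C57BL/6J) to compare the tissue in which the baculum, the penile bone, forms with other forming bones. Of the 5 libraries, 3 came from penises at postnatal day 6 (P6), one came from forelimbs and one from hindlimbs at embryonic day 15 (E15), all from untreated males without an engineered allele. The 3 penises came from different males of a pair of litters and were reduced to the glans by removal of the prepuce, whereas for the limbs the study's methods give a single number of male embryos and not how many each library held. The forelimb and hindlimb libraries were taken as a group of 2, and by the study's methods both may come from the same embryos, so the spread over the 2 limb libraries may not be that between animals. Tissue, age and dissection cannot be told apart in any comparison of penis with limb, and each p-value measures the spread between these libraries only.

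In smooth muscle the thin filaments are built of alpha smooth muscle actin (*Acta2*) and gamma smooth muscle actin (*Actg2*), and the thick filaments of smooth muscle myosin heavy chain (*Myh11*). Calcium entry activates myosin light chain kinase (*Mylk*), whose phosphorylation of the myosin light chain starts contraction, while transgelin (*Tagln*), calponin (*Cnn1*), leiomodin (*Lmod1*) and smoothelin (*Smtn*) bind actin and desmin (*Des*) forms intermediate filaments that link the contractile apparatus. Myocardin (*Myocd*) is a coactivator of serum response factor, which binds the CArG box, a run of A and T bases between CC and GG, in many smooth muscle promoters. In the penis such cells line the blood vessels and the sinuses of the erectile bodies, and pericytes, their relatives on the capillaries, carry part of the same set.

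Each member was counted as unique molecular identifiers (UMIs, one for each captured RNA molecule) and given as CPM, its share of all UMIs of a class scaled to 1000000. Cells were assigned to a class when they held UMIs of enough markers from a list for that class, and no list contained any of the 10 genes. Smooth muscle-gated cells held at least 3 of 12 smooth muscle markers and at least 6 of these and the 9 pericyte markers together, pericyte-gated cells at least 5 pericyte markers and fewer than 3 smooth muscle markers, and both together are called mural. Both also held no *Pdgfra* UMI and fewer than 3 markers of any lineage other than fibroblast and tendon. Cells that met the tendon gate as well stayed tendon-gated. The fibroblast gate required *Pdgfra* and limited pericyte markers but not smooth muscle markers. Cells with smooth muscle markers could thus enter the tendon-gated and fibroblast-gated classes. After filtering, 5708 to 7085 cells remained in the penis libraries, with a median of 8792 to 9909 UMIs per cell, and 20514 and 22057 cells in the limb libraries, with a median of 5358 and 6057 UMIs. The penis libraries held 68, 46 and 48 smooth muscle-gated cells and 44, 55 and 44 pericyte-gated cells, against 13 and 9 smooth muscle-gated cells and 41 and 37 pericyte-gated cells in forelimb and hindlimb. Mural cells thus made up 1.56% ± 0.120 of penis cells (SD, n = 3) and 0.235% ± 0.0146 of limb cells (SD, n = 2), with no overlap between the groups (exact permutation test, two-sided p = 0.1, the smallest p that 3 against 2 libraries can give). The class was set by a count of markers and its size depends on that limit, as asking for 1 more marker left 0.916% of penis cells and 0.128% of limb cells in it. A count of detected markers also depends on depth, which was lower in limb. The median mural cell held 8837, 8251 and 8012 UMIs in the penis libraries and 7704 and 7556 UMIs in forelimb and hindlimb. Whether depth contributed to the difference in mural shares was not tested. Between 27.9% and 40.8% of the cells of a library met no gate and 1.74% to 3.27% carried markers of different lineages; both stayed outside the classes. The limb labels matched their identity genes, with *Tbx5* at 55.5 CPM in forelimb and 3.09 in hindlimb and *Pitx1* at 1.03 and 68.6. Any pair of libraries shared 9 to 124 cell barcodes.

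Within the gates the markers moved with tissue. In smooth muscle-gated cells the 12 smooth muscle markers summed to 1030 to 1273 CPM in penis, where 11 or 12 of them were detected, and to 622 to 682 CPM in limb, where 8 or 9 were. In pericyte-gated cells the 9 pericyte markers summed to 4370 to 5868 CPM in penis and to 2125 to 2929 CPM in limb, with all 9 detected in each library. Markers of other classes moved as well. The smooth muscle markers in pericyte-gated cells summed to 243 to 272 CPM in penis and 121 to 186 CPM in limb. In smooth muscle-gated cells endothelial markers summed to 59.3 to 92.0 CPM in penis and 187 to 375 CPM in limb, and keratinocyte markers to 104 to 128 CPM and 27.6 to 28.0 CPM. Whether this contributed to the tissue differences of the 10 genes within these classes was not tested.

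The genes lie on separate chromosomes or far apart. In the GRCm38 build *Acta2* (ENSMUSG00000035783) is at chr19:34241090-34255590 on the minus strand, *Actg2* at chr6:83512905-83536265, *Myh11* at chr16:14194535-14291372 and *Mylk* at chr16:34745210-35002420. *Tagln* is at chr9:45929619-45936058 and *Cnn1* at chr9:22099216-22109630, *Des* at chr1:75360329-75368579 and *Lmod1* at chr1:135324807-135368065, and *Smtn* at chr11:3517523-3540612 and *Myocd* at chr11:65176561-65269989. *Tagln*, *Smtn* and *Mylk* overlap 2, 2 and 3 annotated genes on the opposite strand and *Des* and *Lmod1* overlap 1 each, whose reads would join theirs if strand had been ignored in counting; the sources used here do not give that setting.

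The promoters of 6 of the 10 genes were in the RefSeq table (GRCm38.p6), and the 250 bases before each start were searched for the CArG box, which reads as its own reverse complement so that both strands are covered. None of the 6 held an exact box, which 1.467% of 32851 promoters did, and 2 of the 6, *Acta2* and *Lmod1*, held boxes with 1 substitution, which 18.62% of all promoters did. These sites are shown because they are the matches to the element through which the coactivator in the set acts, with the box in capitals, 5′ to 3′ on the gene's strand. Distances are counted from the RefSeq start, which for *Acta2* lies inside the gene span given above, so that both of its boxes fall within that span. Coordinates are those of the 30 bases shown, which hold the box and the 10 bases on either side. The *Acta2* boxes lie 84 to 75 and 34 to 25 bases before the start (chr19:34255438-34255467 and chr19:34255388-34255417, minus strand), and the *Lmod1* boxes 189 to 180 and 164 to 155 bases before it (chr1:135324614-135324643 and chr1:135324639-135324668, plus strand).
Acta2 distal: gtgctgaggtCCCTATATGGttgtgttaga
Acta2 proximal: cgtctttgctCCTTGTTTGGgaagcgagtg
Lmod1 distal: gcccccttgtCTTTAAAAGGctaaactgct
Lmod1 proximal: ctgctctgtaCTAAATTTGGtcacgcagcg
A match is a description of these letters and not evidence of binding.

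In the mean of the penis libraries, 9 of the 10 genes had their highest level in smooth muscle-gated cells and their second highest in pericyte-gated cells, and *Smtn* was the exception. *Acta2* stood at 5569, 6043 and 6412 CPM in smooth muscle-gated cells of the 3 penis libraries and at 1328, 1514 and 1098 CPM in pericyte-gated cells. *Myh11* stood at 1195, 1813 and 1499 CPM against 313, 311 and 239 CPM. In both genes the classes did not overlap in any library, and 87.5% to 89.7% of smooth muscle-gated cells held a *Myh11* UMI. *Actg2*, the visceral actin, stood at 485, 707 and 456 CPM in smooth muscle-gated cells and at 50.8, 101 and 37.9 CPM in pericyte-gated cells. Among the thin filament binders, *Cnn1* was the most sharply divided, at 257, 376 and 232 CPM against 19.7, 6.48 and 17.5 CPM. The pericyte level of *Cnn1* rested on 3 to 7 UMIs per library, and in penis 2 tendon-gated cells (19.1 CPM) and glial-gated cells (6.71 CPM) stood above it. *Tagln* stood at 2588, 3616 and 3048 CPM against 942, 1034 and 647 CPM. *Lmod1*, an actin nucleator, stood at 356, 346 and 296 CPM against 127, 151 and 119 CPM. *Mylk* stood at 772, 1008 and 916 CPM against 358, 294 and 355 CPM. For these genes the lowest smooth muscle value again lay above the highest pericyte value. *Myocd* held 154, 143 and 149 CPM in smooth muscle-gated cells, with little spread, and 53.6, 51.8 and 8.74 CPM in pericyte-gated cells, where the penis 3 library held 3 UMIs. *Des* had the shallowest gradient, at 269, 169 and 191 CPM in smooth muscle-gated, 135, 95.0 and 90.3 CPM in pericyte-gated and 74.4, 66.9 and 74.5 CPM in fibroblast-gated cells.

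**Figure D1:**
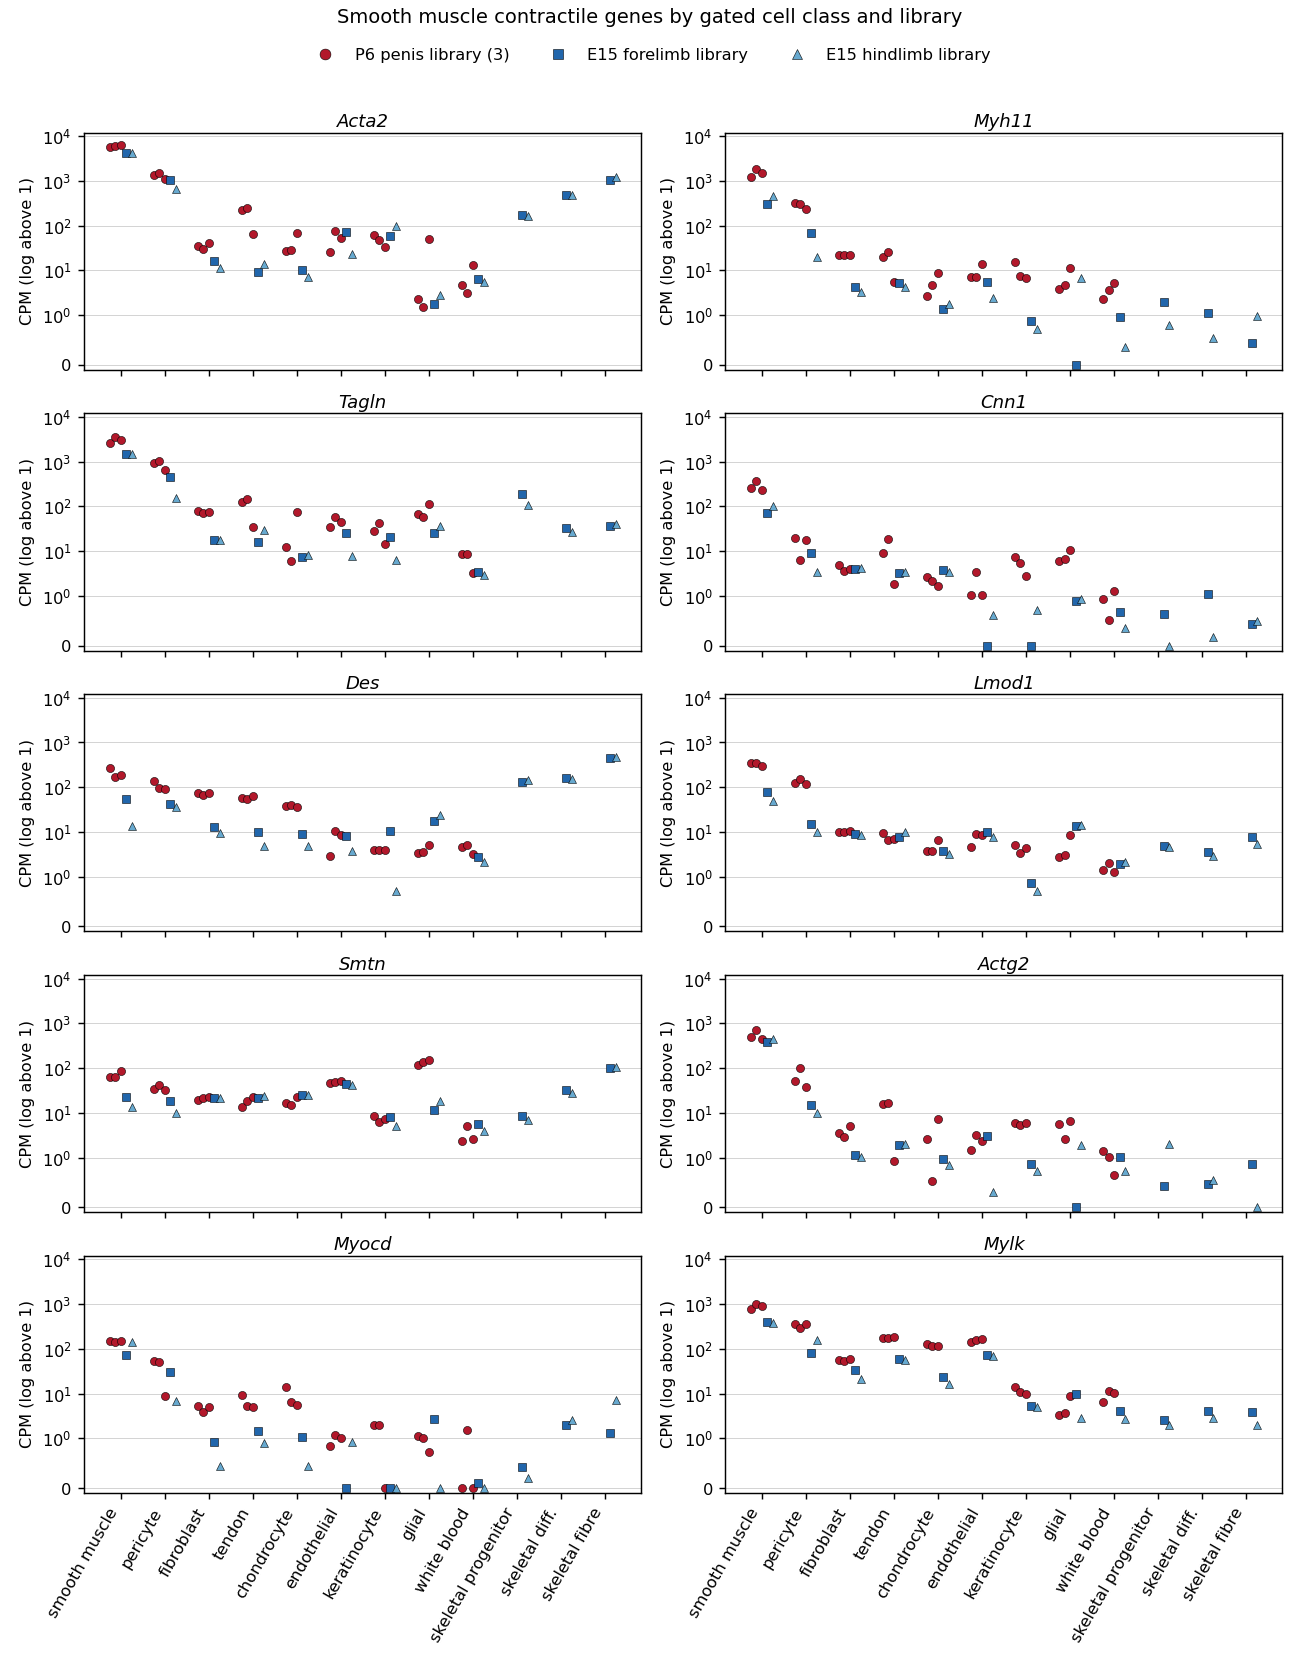
Level of each of the 10 genes (CPM of the class, log scale above 1 CPM and linear below) in every gated class, with 1 point for each library: red circles for the 3 P6 penis libraries, squares for E15 forelimb and triangles for E15 hindlimb; classes with fewer than 5 cells in a library are not drawn. *Acta2* falls from above 4000 CPM in smooth muscle-gated cells of all 5 libraries and is high again in limb skeletal muscle, while *Smtn* is highest in penis glial-gated cells.

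To ask by how much the members differed between smooth muscle-gated and pericyte-gated cells, the 2 classes of the 3 penis libraries were compared with edgeR's quasi-likelihood test on summed counts, with the library as a block, and a gene was called at a Benjamini-Hochberg adjusted p under 0.01 and a log2 fold change over 1. The gates split these classes by smooth muscle markers, so genes that go with those markers were likely to be higher in smooth muscle-gated cells. Of the 10 genes 8 were higher in smooth muscle-gated cells, where 1.74% of all 7065 genes tested were, and the median log2 fold change was 1.90 over the members and -0.01 over all genes. The largest differences were those of *Cnn1* (log2 fold change 4.38 ± 0.30 (SE), edgeR adjusted p = 3.77e-07) and *Actg2* (3.15 ± 0.19, edgeR adjusted p = 1.58e-07). *Myh11* (2.39 ± 0.16) and *Acta2* (2.22 ± 0.10) followed, then *Myocd* (1.96 ± 0.31), *Tagln* (1.85 ± 0.13), *Mylk* (1.44 ± 0.15) and *Lmod1* (1.35 ± 0.16). The call for *Myocd* was lost without the penis 1 library, at 2.23 on the log2 scale, and with DESeq2 (2.20, DESeq2 adjusted p = 0.105). *Des* differed by 0.98 ± 0.17 (edgeR adjusted p = 0.00214), just under the fold limit, and *Smtn* by 0.96 ± 0.27 (edgeR adjusted p = 0.0579). Without the library block 9 of the 10 genes were called, *Des* being the additional one, and the share of all genes called in that fit is not given here.

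Against fibroblast-gated cells of the same libraries all 10 genes were higher in smooth muscle-gated cells, where 5.22% of 16194 genes tested were. Here too only the smooth muscle gate asked for smooth muscle markers. The log2 fold change ran from 7.42 ± 0.08 for *Acta2* and 7.15 ± 0.13 for *Actg2* through 6.08 for *Myh11* and *Cnn1*, 5.34 for *Tagln*, 5.01 for *Lmod1*, 4.99 for *Myocd* and 3.97 for *Mylk* to 1.71 ± 0.20 for *Smtn* and 1.55 ± 0.12 for *Des*. The highest edgeR adjusted p among them was 6.37e-16. The median of all genes lay at -0.14, and edgeR shared a single spread over all genes in this fit, which makes its p-values small.

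Between tissues, most members were higher in the mural cells of the penis than in those of the limb. In smooth muscle-gated cells *Myh11* stood at 1195, 1813 and 1499 CPM in penis and at 308 and 449 CPM in forelimb and hindlimb. *Lmod1* stood at 356, 346 and 296 CPM against 78.3 and 48.4 CPM, and *Des* at 269, 169 and 191 CPM against 55.9 and 13.8 CPM. The tissues did not overlap in these 3 genes, although the limb values of *Des* came from 10 and 2 UMIs and those of *Lmod1* from 14 and 7. The actins lay closer, with *Acta2* at 4245 and 4298 CPM in limb, below the lowest penis value of 5569 CPM, and *Actg2* at 386 and 435 CPM in limb, below the lowest penis value of 456 CPM. *Myocd* overlapped, at 72.7 and 145 CPM in limb, from 13 and 21 UMIs, against 143 to 154 CPM in penis. The limb classes held fewer than the 20 cells set as a minimum, and in these few cells the 5 cells with most *Acta2* carried 84.3% and 98.2% of its UMIs. For *Actg2* a single cell held 41 of its 69 UMIs in forelimb and another 48 of its 63 in hindlimb, so its limb level rested largely on these cells.

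With that limit, 6 of the 10 genes were higher in smooth muscle-gated cells of the penis, where 2.63% of 7493 genes tested were. These were *Des* (log2 fold change 2.56 ± 0.42, edgeR adjusted p = 0.000548), *Lmod1* (2.41 ± 0.31, edgeR adjusted p = 5.63e-05), *Myh11* (2.06 ± 0.25, edgeR adjusted p = 2.5e-05), *Cnn1* (1.78 ± 0.32), *Mylk* (1.23 ± 0.23) and *Tagln* (1.12 ± 0.20). *Acta2* gave 0.55 ± 0.17 (edgeR adjusted p = 0.0517), *Smtn* 1.94 ± 0.50 (edgeR adjusted p = 0.018), *Actg2* 0.48 ± 0.25 and *Myocd* 0.54 ± 0.29. The limb values of *Cnn1* came from 13 and 15 UMIs, of which a single cell held 11 in forelimb and another 9 in hindlimb. Those of *Smtn* came from 4 and 2 UMIs, so the size of either fold change is uncertain. With 1 more gate marker the calls for *Des* (3.41) and *Myh11* (1.84) were kept, and those for *Lmod1* (1.88, edgeR adjusted p = 0.0109), *Cnn1* (1.72, edgeR adjusted p = 0.0114), *Mylk* (1.18) and *Tagln* (0.89) were lost. The calls for *Tagln* and *Mylk* were each lost when any of the penis libraries was left out, at 0.99 to 1.25 and 1.14 to 1.34 on the log2 scale, and the call for *Cnn1* without penis 2 (1.55) or without the forelimb (1.61).

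In pericyte-gated cells, of which every library held at least 37, *Lmod1* stood at 127, 151 and 119 CPM in penis and at 15.0 and 10.1 CPM in limb. *Myh11* stood at 313, 311 and 239 CPM against 68.9 and 20.2 CPM. *Mylk* stood at 358, 294 and 355 CPM against 80.9 and 161 CPM. These 3 genes, of 9 that passed the filter on low counts, were called higher in penis, where 3.79% of 6546 genes tested were. Their log2 fold changes were 3.32 ± 0.37 for *Lmod1* (edgeR adjusted p = 0.000178), 2.61 ± 0.36 for *Myh11* (edgeR adjusted p = 0.000541) and 1.43 ± 0.26 for *Mylk* (edgeR adjusted p = 0.00318). The limb values came from 5 and 3 UMIs for *Lmod1* and from 23 and 6 for *Myh11*, so the size of either fold change is uncertain. *Cnn1* did not pass the filter, and the other 6 were 0.59 to 2.30 higher on the log2 scale without a call. The call for *Mylk* was lost without any single penis library or without the forelimb (1.00 to 1.52).

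Where smooth muscle-gated and pericyte-gated cells were summed together, which gave at least 46 cells in every library, 9 of the 10 genes were called higher in penis and 4.26% of 9535 genes tested were. *Lmod1* (3.02 ± 0.25), *Myh11* (2.62 ± 0.16), *Cnn1* (2.33 ± 0.25) and *Des* (2.11 ± 0.31) changed most, and *Acta2*, at 0.99 ± 0.13 (edgeR adjusted p = 0.000361), stood just under the fold limit. *Smtn* (1.79 ± 0.33, edgeR adjusted p = 0.00264), *Mylk* (1.59 ± 0.15), *Tagln* (1.57 ± 0.17), *Actg2* (1.20 ± 0.20) and *Myocd* (1.07 ± 0.23, edgeR adjusted p = 0.00736) made up the rest. This sum mixes the 2 classes in unequal parts, since smooth muscle-gated cells were 46 to 68 of 92 to 112 mural cells in penis and 9 and 13 of 46 and 54 in limb. Leaving out single libraries ended the call for *Smtn* (without penis 3 or the hindlimb, at 1.73 and 1.46) and for *Myocd* (without penis 1, penis 2 or either limb library, at 0.94 to 1.16).

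Fibroblast-gated cells, defined by *Pdgfra* and other fibroblast markers, carried the set at a low level, and 7 of the 10 genes differed by tissue there. *Des* stood at 74.4, 66.9 and 74.5 CPM in penis and at 13.1 and 9.33 CPM in limb. A *Des* UMI was found in 44.6%, 40.6% and 41.4% of penis fibroblast-gated cells against 7.35% and 6.26% in limb, and the 5 cells with most *Des* held only 2.05% to 3.29% of its UMIs in penis. In this class *Des* was thus spread over many cells. *Tagln* stood at 80.4, 70.6 and 76.6 CPM against 17.5 and 18.1 CPM. *Myh11* stood at 22.0, 22.1 and 21.8 CPM against 4.22 and 3.26 CPM. *Acta2*, at 35.3, 29.5 and 41.6 CPM in penis and 16.2 and 11.1 CPM in limb, was concentrated instead, with 55.2% to 56.5% of its penis UMIs in 5 cells of each library against 8.80% and 10.8% in limb. The same held for *Actg2* (46.0% to 64.1% against 13.7% and 17.0%), for *Cnn1* (46.6% to 57.3% against at most 10.2%) and, to a lesser degree, for *Myh11* (26.4% to 32.3% against 7.69% and 8.23%). The smooth muscle markers moved with these genes, all 12 detected and summing to 100 to 106 CPM in penis and 53.2 to 55.7 CPM in limb fibroblast-gated cells. Markers of other lineages differed by tissue in this class as well. Keratinocyte markers summed to 105 to 122 CPM in penis and 37.3 to 44.4 CPM in limb. Endothelial markers went the other way, at 76.0 to 81.7 CPM and 153 to 161 CPM, as did skeletal muscle markers, at 14.9 to 17.0 CPM and 37.9 to 51.05 CPM.

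Of the 10 genes 7 were called higher in penis fibroblast-gated cells, where 12.6% of 19513 genes tested were. They were *Myocd* (log2 fold change 2.74 ± 0.27), *Des* (2.66 ± 0.13, edgeR adjusted p = 1.13e-07), *Myh11* (2.53 ± 0.11), *Tagln* (2.07 ± 0.07), *Actg2* (1.78 ± 0.24), *Acta2* (1.35 ± 0.17) and *Mylk* (1.02 ± 0.17). *Myocd* had a UMI in only 3.60%, 2.64% and 2.95% of penis fibroblast-gated cells, and its limb level came from 43 and 22 UMIs. The limb level of *Actg2* in this class is read as background, so the size of the *Actg2* fold change is uncertain. *Lmod1* (0.22 ± 0.08), *Cnn1* (0.03 ± 0.15) and *Smtn* (-0.04 ± 0.07) were not called. In fibroblast-gated cells without a UMI of any of the 12 smooth muscle markers, for which no share of all genes called is given here, the calls for *Myocd* (2.69), *Des* (2.54), *Tagln* (1.93) and *Myh11* (1.92) were kept. There *Acta2* gave 0.48 (edgeR adjusted p = 0.0512), *Actg2* 0.86 (edgeR adjusted p = 0.0132) and *Mylk* 0.94 (edgeR adjusted p = 0.000278), and *Cnn1* leaned the other way, at -0.75 (edgeR adjusted p = 0.00499). The call for *Mylk* also depended on the penis 3 library (1.00 without it, just under the fold limit) and on the hindlimb library (0.71 without it).

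**Figure D2:**
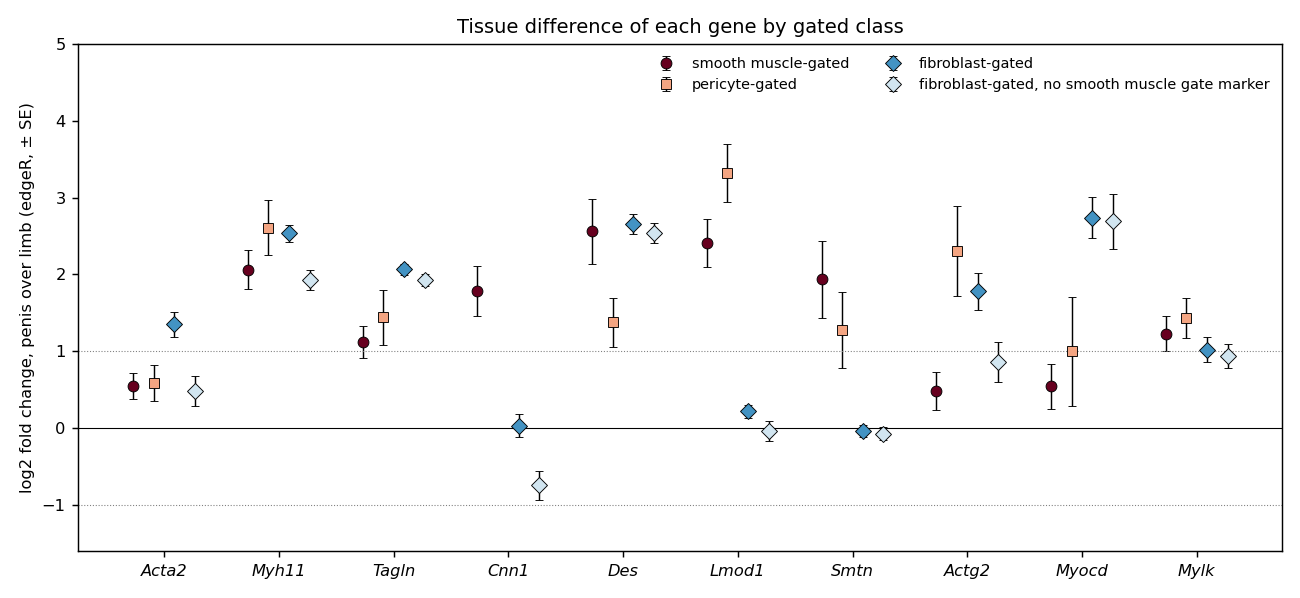
Log2 fold change of penis over limb (edgeR, points with SE bars) for each gene in smooth muscle-gated cells, pericyte-gated cells, fibroblast-gated cells and fibroblast-gated cells without a smooth muscle gate marker; dotted lines mark the fold limits, and *Cnn1* has no pericyte point because it did not pass the filter. *Lmod1*, *Smtn* and *Cnn1* are near 0 in fibroblast-gated cells and above 1 in smooth muscle-gated cells, while *Myocd* is higher in the fibroblast-gated points.

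Whether the tissue difference itself differed between mural and fibroblast-gated cells was tested with an interaction term, with the library as a block because each library gave both sums. In this fit 1.61% of 18214 genes had a larger and 1.22% a smaller tissue difference in mural cells. *Lmod1* (2.83 ± 0.28 on the log2 scale, edgeR adjusted p = 9.21e-11), *Cnn1* (2.32 ± 0.33, edgeR adjusted p = 8.19e-07) and *Smtn* (1.86 ± 0.38, edgeR adjusted p = 0.000519) had the larger difference in mural cells. *Myocd* had the smaller one (-1.66 ± 0.42, edgeR adjusted p = 0.00754), with 4.70 CPM on average in penis and 0.692 CPM in limb fibroblast-gated cells. For *Acta2*, *Myh11*, *Tagln*, *Des*, *Actg2* and *Mylk* no difference was called, with estimates between -0.55 and 0.56. The call for *Smtn* was lost without penis 2 or the hindlimb (1.91 and 1.61) and that for *Myocd* without any penis library or the hindlimb (-1.77 to -1.08). Mural cells of forelimb and hindlimb held 19 and 10 UMIs of *Lmod1*, 16 and 16 of *Cnn1* and 10 and 5 of *Smtn*. A single cell held 11 of the *Cnn1* UMIs in forelimb and another held 9 in hindlimb.

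Over all filtered cells of a library, where fewer cells of a type and less RNA per cell cannot be told apart, 6 of the 10 genes were higher in penis and 13.0% of 21723 genes tested were. These were *Myh11* (log2 fold change 3.28 ± 0.10), *Myocd* (2.71 ± 0.12), *Actg2* (2.35 ± 0.10), *Tagln* (1.84 ± 0.13), *Mylk* (1.64 ± 0.14) and *Cnn1* (1.08 ± 0.11), with edgeR adjusted p from 8.48e-08 to 3.95e-05. *Lmod1* (0.88 ± 0.07), *Des* (0.76 ± 0.11), *Acta2* (0.57 ± 0.13) and *Smtn* (0.21 ± 0.07) stayed under the fold limit.

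Different cells held the UMIs of these genes in the 2 tissues. Mural cells held 49.9% ± 2.54 of the *Acta2* UMIs of a penis library (SD, n = 3) and 8.44% ± 0.290 of those of a limb library (SD, n = 2), in which skeletal muscle-gated cells held 55.8% ± 7.09. Most *Des* UMIs of the penis were in fibroblast-gated cells (62.0% ± 0.354), which held 49.1% to 50.9% of all UMIs there. In limb most were in skeletal muscle-gated cells (56.8% ± 6.25), which held 8.72% and 9.79% of all UMIs. The penis libraries held at most 1 skeletal muscle-gated cell each. *Tagln* was shared in the penis between fibroblast-gated (34.6% ± 1.83) and mural cells (29.1% ± 0.788), and in the limb 23.4% ± 2.32 of it lay in skeletal muscle-gated cells. *Actg2* (48.1% in penis and 24.1% in limb), *Myh11* (37.3% and 13.3%), *Cnn1* (34.2% and 3.25%), *Lmod1* (25.8% and 1.31%), *Myocd* (22.0% and 15.6%) and *Mylk* (12.2% and 2.92%) all had a larger mural share in penis. In each of these mural shares the penis and limb libraries did not overlap (exact permutation test, two-sided p = 0.1, the smallest possible). Mural cells also held more of all UMIs in penis, 1.36% to 1.60% against 0.297% and 0.359% in limb, so a larger mural share in penis is not particular to these genes. Cells outside every class held a visible part of each gene, which limits these shares.

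**Figure D3:**
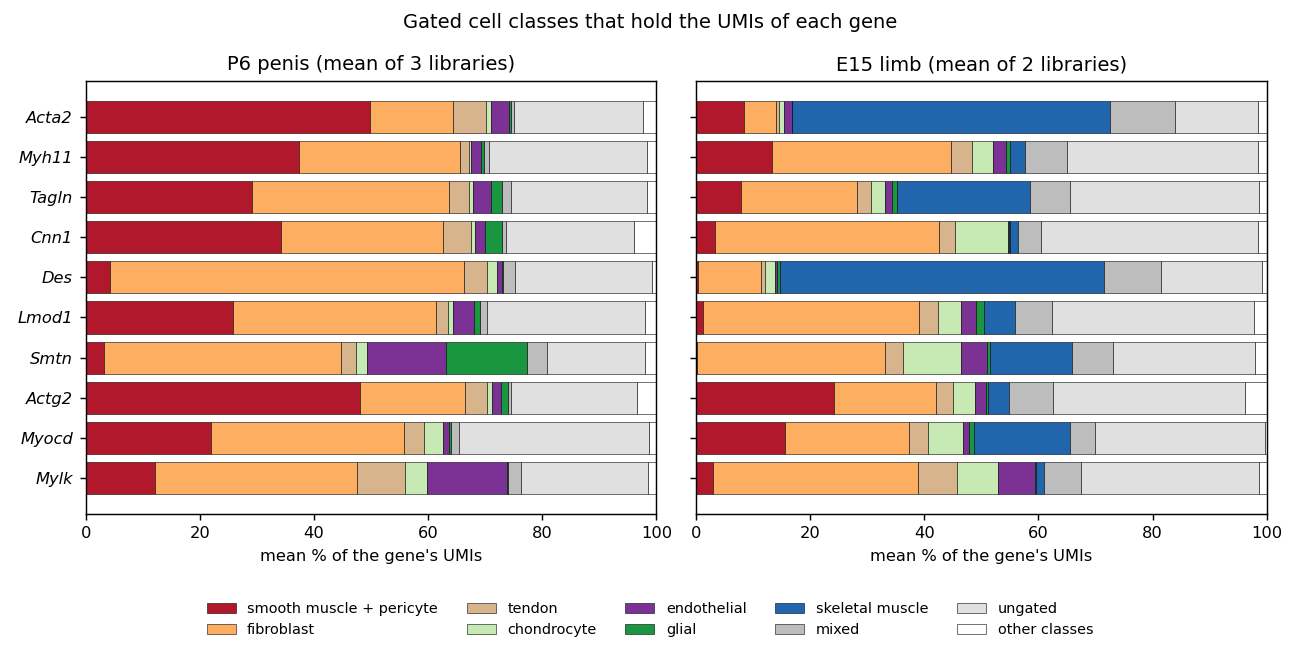
Mean percent of the UMIs of each gene that lay in each gated class, in the 3 P6 penis libraries (left) and the 2 E15 limb libraries (right); mixed cells carried markers of different lineages and ungated cells too few markers. Skeletal muscle holds 55.8% of limb *Acta2* and 56.8% of limb *Des*, where in penis mural cells hold 49.9% of *Acta2* and fibroblast-gated cells 62.0% of *Des*.

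Along the stages of limb skeletal muscle the members went separate ways. Progenitor-gated, differentiating and fibre-gated cells numbered 486, 719 and 288 in forelimb and 449, 539 and 209 in hindlimb. *Acta2* stood at 177, 488 and 1021 CPM across these stages in forelimb and at 164, 490 and 1191 CPM in hindlimb. *Des* stood at 133, 160 and 443 CPM and at 147, 153 and 467 CPM, and *Smtn* at 8.30, 32.3 and 99.9 CPM and at 7.04, 27.4 and 105 CPM. All 3 were highest in fibres in both libraries. *Tagln* did not follow them, at 190, 33.5 and 36.3 CPM in forelimb and 109, 26.3 and 40.9 CPM in hindlimb, and was highest in progenitors. *Myh11*, *Cnn1* and *Actg2* did not exceed 2.01 CPM at any stage, *Mylk* 4.19 CPM and *Lmod1* 7.78 CPM. *Myocd* reached 7.31 CPM in hindlimb fibres from 15 UMIs and 1.30 CPM in forelimb fibres from 3. No test was run on the stages, which have 1 library per limb. The striated actins, close relatives of *Acta2* whose reads could be hard to assign, moved with it: *Actc1* stood at 130, 2335 and 4778 CPM in forelimb and 136, 2197 and 5582 CPM in hindlimb. *Acta1* was at 11.3, 20.03 and 925 CPM and at 6.64, 8.12 and 728 CPM. Whether shared reads contributed to *Acta2* here was not tested.

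**Figure D4:**
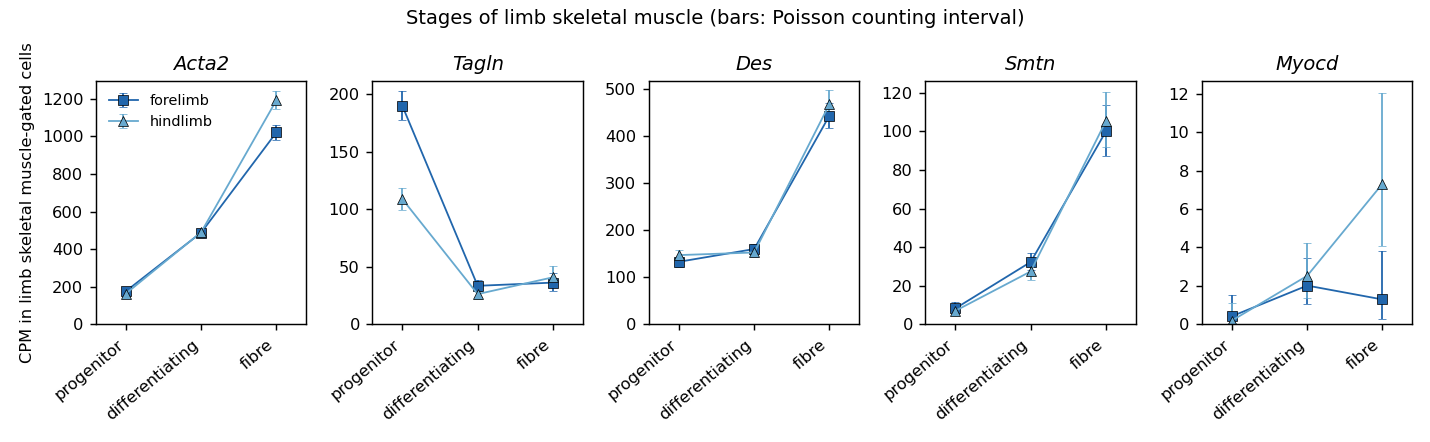
Level (CPM, linear axes from 0) of 5 of the genes in progenitor, differentiating and fibre stages of limb skeletal muscle-gated cells, squares for forelimb and triangles for hindlimb, with 95% Poisson bars that cover counting error only. *Acta2*, *Des* and *Smtn* are highest in fibres, at 1021 and 1191, 443 and 467, and 99.9 and 105 CPM, and *Tagln* is highest in progenitors, at 190 and 109 CPM.

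*Smtn* departed from the rest of the set in glial-gated cells, the Schwann cell lineage of the nerves. It stood there at 117, 138 and 151 CPM in the penis libraries, above its 61.9, 62.7 and 85.5 CPM in smooth muscle-gated cells, and at 11.7 and 17.9 CPM in limb. It was found in 49.3% to 54.5% of penis glial-gated cells against 7.24% and 15.4% in limb, and these cells held 14.3% ± 1.30 of all penis *Smtn* UMIs (SD, n = 3). Endothelial-gated cells held a like share of penis *Smtn* UMIs, 13.8%, 13.9% and 13.9%, at 47.3, 48.2 and 51.8 CPM. In limb, endothelial-gated *Smtn* stood at 44.4 and 41.4 CPM, above the 22.4 and 13.8 CPM of smooth muscle-gated cells, which rested on 4 and 2 UMIs. In penis the level was 0.92 ± 0.15 higher on the log2 scale in glial-gated than in smooth muscle-gated cells (edgeR adjusted p = 0.000375), under the fold limit, whereas the other 9 genes were lower in glial-gated cells, where 12.2% of 10067 genes tested were lower. Between tissues glial *Smtn* was higher in penis (3.23 ± 0.21, edgeR adjusted p = 2.91e-09), as was *Tagln* (1.37 ± 0.27), which stood at 69.4, 58.3 and 111 CPM against 26.1 and 35.9 CPM. In penis 3 a single glial-gated cell held 57 of the 154 *Tagln* UMIs of the class. Of the genes tested in this class 8.74% were higher and 7.77% lower in penis. *Des* was lower in the penis, at 3.36, 3.61 and 5.04 CPM against 18.0 and 23.6 CPM (-2.34 ± 0.37, edgeR adjusted p = 8.22e-05), the reverse of its direction in mural, fibroblast-gated and tendon-gated cells. The penis values rested on 6 or 7 UMIs each and overlapped those of penis white blood cells (4.64, 5.19 and 3.22 CPM), so they are read as background and the size of this difference is uncertain. *Lmod1* (-1.55 ± 0.46, edgeR adjusted p = 0.0132) and *Mylk* (-0.34 ± 0.59) were not called, and the remaining 5 genes did not pass the filter here. *Lmod1* was called lower without the penis 3 library (-2.15) and without the filter on low counts (-1.49). The *Tagln* call was lost without the forelimb (1.17) and in cells without a smooth muscle marker (0.58), while those for *Smtn* and *Des* held in all 11 alternatives.

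In tendon-gated cells *Mylk* stood at 173, 172 and 181 CPM in penis and at 59.0 and 55.2 CPM in limb, and *Des* at 58.4, 55.3 and 62.8 CPM against 9.78 and 4.95 CPM. Both were evenly held in the penis libraries and separate from the limb. *Acta2* stood at 228, 246 and 65.6 CPM against 9.30 and 13.96 CPM, but 80.6% and 81.3% of its UMIs in penis 1 and penis 2 lay in 5 cells. *Actg2* stood at 15.3, 16.2 and 0.937 CPM against 1.96 and 2.03 CPM, so that penis 3 lay below both limb libraries, and a single cell held 35 of its 41 UMIs in penis 1 and another 32 of its 39 in penis 2. *Myh11* was held likewise, with 94.3% and 82.5% of its UMIs in 5 cells of penis 1 and penis 2, as was *Tagln*, with 78.6% and 70.7%. *Myocd* rested on 25, 13 and 11 UMIs in the penis libraries, of which 5 cells held 81.8% to 92.3%. Here 7 of the 10 genes were called higher in penis, where 8.76% of 12860 genes tested were, led by *Acta2* (4.01 ± 0.44), *Des* (3.06 ± 0.21), *Myocd* (2.54 ± 0.47) and *Actg2* (2.52 ± 0.64), with *Tagln* (2.25 ± 0.40), *Myh11* (1.95 ± 0.43) and *Mylk* (1.67 ± 0.10). Without penis 1 or penis 2 the call for *Myh11* was lost (1.85 and 1.55) and *Actg2* did not pass the filter. DESeq2 did not call *Actg2* (2.50), *Tagln* (2.25) or *Myh11* (1.93). In tendon-gated cells without a smooth muscle marker 5 genes could be tested, and the calls for *Acta2* (3.52), *Des* (3.07), *Mylk* (1.48) and *Tagln* (1.27) were kept. The share of all genes called in that fit is not given here. Chondrocyte-gated cells showed *Mylk* at 130, 114 and 116 CPM in penis against 23.0 and 16.6 CPM in limb and *Des* at 38.0, 40.1 and 36.6 CPM against 9.07 and 4.85 CPM, and endothelial-gated cells *Mylk* at 140, 155 and 168 CPM against 72.4 and 69.8 CPM, values that were not tested.

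White blood cells were taken to lack the set, and their levels were used as the background of free RNA. Whether they express any of the genes themselves was not tested. They held a median of 6392 to 7217 UMIs per cell in penis against 9647 to 10981 UMIs in fibroblast-gated cells. In white blood cells the 10 genes did not exceed 12.9 CPM in any library, a value reached by *Acta2* in penis 3. None had a UMI in more than 7.91% of these cells. For every one of the genes the lowest penis fibroblast-gated level lay above the highest penis white blood level, including the rare *Myocd* (3.83 against 1.56 CPM) and *Actg2* (2.90 against 1.39 CPM). In limb the skeletal muscle levels of *Cnn1*, *Actg2* and *Mylk* overlapped their white blood levels and are read as background. Limb skeletal muscle *Myh11* stood just above its white blood level, at 1.22 and 1.00 CPM against 0.953 and 0.364 CPM, with overlapping counting intervals in each library. Also read as background is the *Actg2* level of limb fibroblast-gated cells, at 1.05 and 1.15 CPM against 0.728 and 1.05 CPM.

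Because depth sets how often a gene is seen, cells were also thinned to 2000 UMIs. A UMI of *Acta2* was then found in 88.8% ± 4.64 of smooth muscle-gated cells in penis (SD, n = 3) and 79.0% ± 5.37 in limb (SD, n = 2), and of *Myh11* in 68.5% ± 3.05 and 39.4% ± 0.695. *Lmod1* (44.3% ± 4.25 and 15.1% ± 4.13) and *Des* (25.5% ± 4.22 and 7.01% ± 3.78) were apart as well, while *Myocd* (20.4% ± 1.11 and 18.8% ± 8.74) overlapped. The median over the 10 genes was 42.4% in penis and 23.2% in limb, and unthinned it was 72.2% and 47.2%.

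Counted together, 7, 7 and 7.5 of the 10 genes had a UMI in the median smooth muscle-gated cell of the 3 penis libraries and 4 and 5 in that of forelimb and hindlimb. The median pericyte-gated cell held 4 to 5 in penis and 2 in limb, and the median white blood cell 0. At least 6 of the genes were present in 127, 117 and 97 penis cells and in 34 and 13 limb cells. Of these, 52, 36 and 35 in penis and 6 and 3 in limb were smooth muscle-gated, and 32 to 39 in penis and 10 and 7 in limb met no gate. A further 0 to 2 in penis and 8 and 1 in limb carried markers of different lineages. These counts were made on unthinned cells, and over all filtered cells depth was lower in limb. The median smooth muscle-gated cell held 9562.5, 9260 and 9062.5 UMIs in the penis libraries and 9984 and 8414 UMIs in forelimb and hindlimb. The median pericyte-gated cell held 7570, 7908 and 6386 UMIs in penis and 7240 and 7281 UMIs in limb. Whether depth contributed to the counts was not tested.

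The members resembled one another to different degrees across the 53 library-by-class sums with at least 20 cells, which share libraries and depth. Pearson's r of a gene's log2(CPM + 10) with the mean of the other 9 was highest for *Myh11* (0.932), *Myocd* (0.930), *Tagln* (0.925), *Actg2* (0.923) and *Lmod1* (0.921), then *Cnn1* (0.843), *Acta2* (0.809) and *Mylk* (0.719), and lowest for *Des* (0.575) and *Smtn* (0.406). Other genes were ranked by likeness to the mean of the set after all gate markers and genes that reached 50 CPM in no sum were left out. Among the 8149 genes ranked the pattern most like the mean of the set was that of the potassium channel gene *Kcnk3* (r = 0.918), followed by the long noncoding RNA *Carmn* (0.914), *Rasl11a* (0.914), *Mrvi1* (0.903), *Npy1r* (0.895), *Fhl5* (0.891), *Slc38a11* (0.884), *Adra2a* (0.883), *Olfr558* (0.875) and *Atp2a2* (0.874). *Kcnk3* ranged from 121 to 169 CPM in smooth muscle-gated cells and from 59.2 to 99.3 CPM in pericyte-gated cells of the penis, and from 6.00 to 6.73 CPM in pericyte-gated cells of the limb. Both limb values lay below the level of 3 UMIs in these sums, 8.99 CPM in forelimb and 10.09 CPM in hindlimb.

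A list of 42 other genes of smooth muscle function placed the set in its pathway. Between tissues in mural cells, 10 of 40 tested were higher in penis and none was lower, where 4.26% of all genes tested were higher and 2.74% lower (edgeR, with 9 of the 10 members higher for comparison), at a median log2 fold change of 0.66 against 0.01 for all genes. They were the linker genes *Pdlim3* (5.81 ± 0.40) and *Pgm5* (3.53 ± 0.38), the calcium-activated potassium channel *Kcnma1* (5.04 ± 0.28) and the junctional protein *Jph2* (1.52 ± 0.33), the cyclic GMP phosphodiesterase *Pde5a* (1.55 ± 0.22) and the myosin phosphatase subunit *Ppp1r12b* (1.39 ± 0.20), the regulatory light chain *Myl9* (1.54 ± 0.16), *Csrp1* (1.34 ± 0.18) and beta tropomyosin *Tpm2* (1.09 ± 0.22), and the serum response factor partner *Mrtfb* (1.27 ± 0.22). By group these were 3 of 7 thin filament and light chain genes, 2 of 7 of the myosin phosphatase and cyclic GMP arm, 2 of 5 of calcium handling, 2 of 14 linkers and 1 of 7 regulators. Between smooth muscle-gated and pericyte-gated cells of the penis 13 of 37 tested were higher and none lower, where 1.74% of all genes tested were higher and 0.382% lower, among them 5 of 7 thin filament and light chain genes. The gates split these classes by smooth muscle markers, so a higher count was likely for genes that go with those markers. In fibroblast-gated cells 7 of 42 were higher in penis, including *Pdlim3* (3.96 ± 0.16), *Pde5a* (1.94 ± 0.06) and *Myl9* (1.13 ± 0.09), and 3 were lower, including *Jph2* (-1.82 ± 0.15), where 12.6% of all genes tested were higher and 12.5% lower, so that the higher count was near the background.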

How the data were processed

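The authors deposited raw UMI counts per gene and barcode made with Cell Ranger 7.0.0 on mm10, per the labels and the study's methods. Barcodes were kept at 500 to 6000 genes and under 5% mitochondrial counts in penis, 100 to 9000 (forelimb) or 9500 (hindlimb) genes and under 10% in limb, and a log10 ratio of genes to UMIs over 0.8. Counts were summed per library and class and tested with edgeR 4.0.16 (TMM, quasi-likelihood, filterByExpr, Benjamini-Hochberg adjustment over all genes tested); DESeq2 1.42.0, RLE scaling, no low-count filter, 1 more gate marker, all barcodes and each library left out were alternatives. Cells with markers of different lineages were left out and no doublet caller was run. The members, the gates, the list of 42 genes and the tests were chosen with earlier results of these data known. All members are named, with the 10 listed genes called in mural cells (the largest fold changes there) and the 10 genes of most similar pattern. The mural, glial-gated and tendon-gated comparisons, the test on fewer than 20 limb smooth muscle-gated cells and the cells without smooth muscle markers were added after seeing the data. On simulated counts for the pericyte comparison (6078 genes), 86.1% of genes changed by 2 and 94.8% of those changed by 3 on the log2 scale were recovered, with 0 false calls. For smooth muscle against fibroblast in penis (15719 genes) the shares were 69.7% and 79.2%, with 1 false call.

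Python 3.11.15 and R 4.3.3 were used. Total kept counts were 51529854 to 68417925 UMIs in the penis libraries and 142718533 and 148752710 in the limb libraries. Poisson intervals are 95% and cover counting error only. The 10X kit captures 3′ ends, so levels were compared between classes and libraries and not between genes.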

Additional observations from a re-analysis of the deposited data

Results flagged for a closer look

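In 4 of the genes the penis-over-limb difference in mural cells differed from that in fibroblast-gated cells when the difference itself was tested with an interaction term, with the library as a block. It was larger in mural cells by 2.83 on the log2 scale for *Lmod1*, by 2.32 for *Cnn1* and by 1.86 for *Smtn*. For *Myocd* it was smaller, with a difference of -1.66. Of 18214 genes in this fit 1.61% had a larger and 1.22% a smaller tissue difference in mural cells. The call for *Smtn* was lost without penis 2 or the hindlimb, and that for *Myocd* without any penis library or the hindlimb. The larger differences rested on 5 to 19 UMIs of each gene in the mural cells of a limb library. The mural sums hold more pericyte-gated than smooth muscle-gated cells in limb and not in every penis library, and the part of this mixture in the 4 values was not tested.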

How the results depend on the processing

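Leaving out 1 library at a time gave 2 to 3 members called higher in pericyte-gated cells (195 to 481 genes called in all), 3 to 6 in smooth muscle-gated (145 to 265), 6 to 7 in fibroblast-gated (4577 to 4827), 7 to 9 in mural (444 to 627), 6 in all cells (5070 to 5312), 5 to 8 in tendon-gated and 1 to 2 higher and 1 to 2 lower in glial-gated cells; for smooth muscle against pericyte 7 to 9 (89 to 223), against fibroblast 10 (1090 to 1595), glial against smooth muscle 0 higher and 9 lower, and for the interaction 2 to 3 higher and 0 to 1 lower (260 to 562). For the tendon-gated, glial-gated and glial against smooth muscle counts no total of all genes called is given here, so they have no background beside them. Where 1 limb library was left, it was assumed to vary like the penis libraries.

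Without the filter on low counts 6 members were called in pericyte-gated cells, 4 higher and 2 lower in glial-gated cells and 1 higher in glial against smooth muscle, and genes called came to 787 (pericyte), 539 (smooth muscle), 1169 (mural) and 268 (smooth muscle against pericyte). With 1 more gate marker 2 members were called in smooth muscle-gated and 4 in tendon-gated cells, with 188 (pericyte), 105 (smooth muscle), 353 (mural) and 227 genes (smooth muscle against pericyte). DESeq2 called 77 genes in the last comparison and 4 members in tendon-gated cells. In cells without a smooth muscle marker 4 members were called higher in fibroblast-gated, 4 in tendon-gated and 1 in glial-gated cells, where 1 was called lower. The shares of all genes called in these fits are not given here, so the counts have no background beside them. Main counts were 403, 299, 667 and 150 genes for pericyte, smooth muscle, mural and smooth muscle against pericyte.

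Estimates that changed sign were not called as first fitted. *Cnn1* in fibroblast-gated cells went to -0.16 with 1 more marker, -0.034 with all barcodes and -0.75 without smooth muscle markers (where *Lmod1* went to -0.033), and to between -0.12 (without penis 1) and 0.14 over the left-out libraries. Over the left-out libraries *Smtn* in the same cells lay between -0.073 and 0.017 (without penis 1), *Myh11* in the interaction between -0.041 (without the forelimb) and 0.35, and at -0.16 with 1 more marker, *Mylk* in glial-gated cells between -0.94 and 0.84 (without the forelimb) and *Lmod1* in tendon-gated cells between -0.32 and 0.098 (without the hindlimb).

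The median share of smooth muscle-gated cells with a UMI was 27.6%, 57.8% and 72.2% in penis and 16.5%, 31.9% and 47.2% in limb at 1000 UMIs, 4000 UMIs and unthinned. With 1 more marker or all barcodes mural cells held 38.4% or 43.2% of penis *Acta2*, fibroblast-gated cells 61.2% or 57.5% of penis *Des*, and mural shares of cells were 0.916% or 1.25% in penis and 0.128% or 0.201% in limb; limb skeletal muscle held 16.5% of *Tagln* with 1 more marker and penis glia 12.7% of *Smtn* with all barcodes. Leaving out libraries moved these shares to 48.6% to 51.1%, 61.8% to 62.1%, 1.52% to 1.63%, 0.224% to 0.245%, 21.8% to 25.1% and 13.7% to 15.0%, and limb skeletal muscle *Acta2* and *Des* to 50.8% to 60.8% and 52.3% to 61.2%.

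The library was a block within penis and in the interaction, which was not fitted without it. Without the replicate block, within penis, 9 members were called for smooth muscle against pericyte, 10 against fibroblast and 9 lower for glial against smooth muscle, and no other call changed. The shares of all genes called without the block are not given here. No paired analysis was possible for the comparisons between tissues because penis and limb libraries share no animal. A replicate number that some of them share does not tie them together. The few limb smooth muscle-gated cells limit the depth of that comparison.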
